A study of Mus musculus with 4 samples.

Results

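Helios, the protein encoded by Ikzf2, is a zinc finger transcription factor of the Ikaros family. In CD4 T cells it is best known from regulatory T (Treg) cells, which restrain immune responses and are defined by the transcription factor Foxp3, but it is also found in T cells that carry no Foxp3. Interferon gamma, encoded by Ifng, is the signature cytokine of T helper 1 (Th1) cells, a lineage set up by IL-12, IL-18 and interferon signals through the factors STAT4 and T-bet (Tbx21). The gut lamina propria, the connective tissue under the epithelium, holds many Ifng-producing CD4 T cells as well as many Treg cells.

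The cells described here are Ifng-expressing CD4 T cells without a Foxp3 transcript, divided by whether an Ikzf2 transcript was found in them. They came from 4 libraries of a single group, wildtype C57Bl/6 mice. The small intestine lamina propria was digested after Peyer's patches had been cut out, T cells positive for CD45, CD3 and CD4 and unstained by the death dye 7AAD were sorted, and single cells were captured with the 5′ Chromium chemistry. No treatment, genotype, age or time point was compared. Cells with at least 500 genes, at least 1000 UMIs (unique molecular identifiers, 1 per captured transcript molecule) and at most 10% mitochondrial UMIs were kept, 22534 of all 4 libraries. Members were chosen by the counts of 3 genes in each cell: at least 1 UMI of Ifng and none of Foxp3, which 7206 cells met. Of these, 2302 held at least 1 UMI of Ikzf2 (561, 617, 592 and 532 in libraries 1 to 4) and are called Ikzf2-positive, and 4904 held none (1295, 1150, 1269 and 1190) and are called Ikzf2-negative. In mm10, Ikzf2 lies on chromosome 1 (69531214 to 69687245, minus strand), Ifng on chromosome 10 (118441046 to 118445892, plus strand) and Foxp3 on chromosome X (7573644 to 7595245, plus strand). Between 34 and 51 cell barcodes were shared by any pair of libraries.

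The sides of the comparison differed in depth before any gene was compared. The median Ikzf2-positive cell held 5034, 4459, 4165 and 5411 UMIs in libraries 1 to 4, and the median Ikzf2-negative cell 4254, 3615, 3653 and 4028. The positive side was deeper in every library, and it also held more genes per cell (medians of 1783 to 2070 against 1616 to 1768). Cells among the highest doublet scores, which may be 2 cells captured together, made up 8.11% to 11.99% of the positive side and 3.48% to 5.20% of the negative side. Mitochondrial shares were close on both sides, with medians of 1.90% to 2.22% and 1.99% to 2.26%. A deeper cell is more likely to show an Ikzf2 UMI. The main results below are therefore given also in a version in which cells were compared only within strata of depth (divided at 3000, 4500 and 7000 UMIs). The stratum above 7000 UMIs had no upper limit, and its positive cells were still deeper in every library. In library 1, 190 positive cells held 2211704 UMIs there, and 154 negative cells held 1536870.

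An Ikzf2 UMI was found in 32.0% ± 2.07 of the Foxp3-negative Ifng cells (SD, n = 4 libraries; 30.2% to 34.9%). With each cell thinned to 2000 UMIs and the genes of the gate counted again, the share was 18.1% ± 2.08. Cells with neither Ifng nor Foxp3 gave 32.5% ± 3.41, or 22.8% ± 2.38 after thinning. Foxp3-positive cells gave 91.6% ± 1.21, or 77.4% ± 2.82. The share in Ifng cells thus lay near that of Ifng-negative cells before thinning and far below that of Foxp3-positive cells at either depth.

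These genes set the gate, so their levels are a description with no test. Among Ikzf2-positive cells, 52.5% ± 2.73 held exactly 1 Ikzf2 UMI, 21.3% ± 1.98 held 2 and 26.2% ± 2.29 held 3 or more. Just outside the Ifng threshold stood the cells without Ifng given above, and just inside it the cells with 1 Ifng UMI, of which 29.3% ± 2.22 held Ikzf2. With 2 Ifng UMIs the share was 30.0% ± 3.20 and with 3 or more it was 35.7% ± 2.58, and the respective shares after thinning were 17.8%, 16.8% and 20.0%. Ifng itself took up 753 ± 74.0 CPM of all UMIs in Ikzf2-positive cells against 864 ± 125 in Ikzf2-negative cells, while UMIs per cell were 4.74 ± 0.345 against 3.81 ± 0.338. Over cells of all depths, the order of the sides thus depended on whether Ifng was counted per UMI or per cell. In cells of 3000 to 6000 UMIs, Ifng took up 926 ± 113 CPM with no Ikzf2 UMI. There it stood at 987 ± 59.3 CPM with 1 Ikzf2 UMI, 864 ± 273 with 2 and 1432 ± 375 with 3 or more. With 3 or more, Ifng lay above its value with none in every library. With 1 and with 2, the libraries went both ways.

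UMIs were summed per library and side, and the 4 pairs of sums were compared by edgeR's quasi-likelihood test with the library as a block. Levels below are CPM (UMIs per 1000000 summed UMIs, TMM-scaled), and p-values are adjusted by Benjamini-Hochberg over all 9981 genes tested, without Ikzf2, Ifng and Foxp3. At an adjusted p of 0.05, 638 genes (6.39%) were higher and 355 (3.56%) lower in Ikzf2-positive cells, 9.95% in either direction. DESeq2 called 193 genes higher (1.93%) and 64 lower (0.641%) on the same sums, so that 75.1% of its calls were higher against 64.2% of edgeR's. Within depth strata 334 of 8244 genes (4.05%) were higher and 159 (1.93%) lower, and 225 of the higher and 128 of the lower calls passed there in the same direction as well. The 4 strata of a library entered that fit as separate pairs, which left 15 residual degrees of freedom against 3 in the fit of 4 pairs. Its p-values, and those of its versions with cells left out, therefore rest in large part on the spread between strata that share a library. In a single window of 3000 to 6000 UMIs, with 1 pair for each library, 244 of 8911 genes were higher and 99 lower. In such sums, a larger number of cells of a type and more transcript per cell cannot be told apart. The labels do not say whether each library is 1 mouse, so the p-values of the fits with 1 pair for each library measure only the spread between these libraries.

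**Figure D1:**
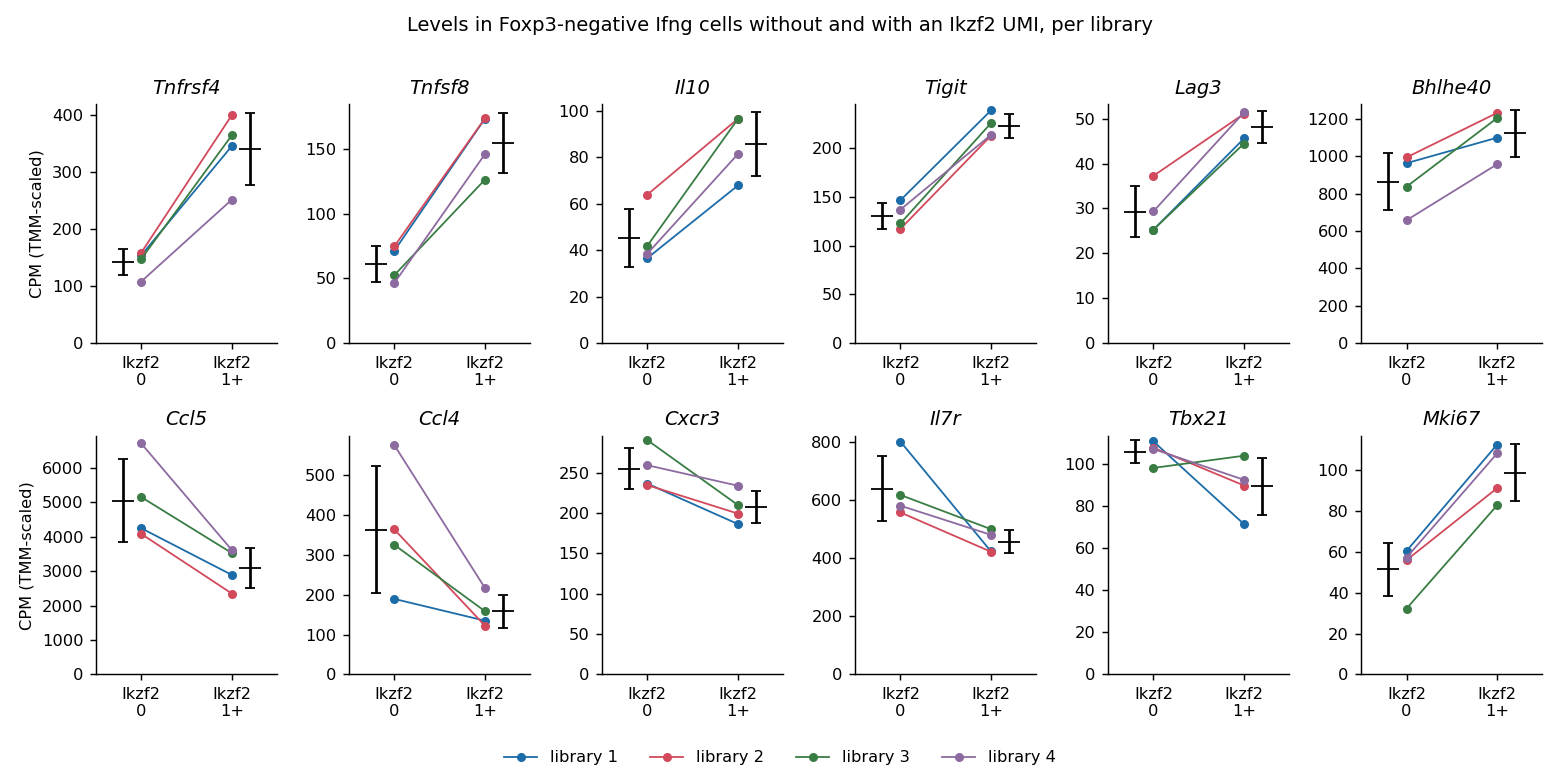
CPM (TMM-scaled, y axis from 0 in each panel) of 12 genes in Foxp3-negative Ifng cells with no Ikzf2 UMI (left) and with at least 1 (right). Lines join the sums of the same library, and black bars give the mean and SD of 4 libraries; Tnfrsf4, Tnfsf8, Il10, Tigit, Lag3 and Bhlhe40 rose in all 4 libraries, Ccl5, Ccl4, Cxcr3 and Il7r fell in all 4, and Tbx21 was lower in 3.

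Within the Ikaros family, 4 relatives of Helios were tested. Ikzf4 (Eos, a partner of Foxp3) rose from 3.97 ± 0.920 to 7.65 ± 2.91 CPM (log2 fold change 0.92 ± 0.23, SE; adjusted p = 0.018). Without library 2 the change of Ikzf4 was 0.67 (adjusted p = 0.16) and without library 4 it was 0.86 (adjusted p = 0.078). Ikzf1 (Ikaros, a founding member of the family in lymphocytes) stood at 132, 133, 137 and 141 CPM in libraries 1 to 4 of the positive side and at 157, 159.5, 167 and 166 CPM of the negative side. The sides did not overlap, and Ikzf1 fell by 0.26 ± 0.05 on the log2 scale (adjusted p = 0.0018), with the same change of -0.26 within depth strata. DESeq2 did not call Ikzf4 or Ikzf1. Ikzf3 (Aiolos) stood at 267 ± 13.1 against 269.6 ± 18.3 CPM and Ikzf5 (Pegasus) at 17.1 ± 1.82 against 15.9 ± 1.14 CPM, with adjusted p-values of 0.90 and 0.68.

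Genes known to accompany Foxp3 in Treg cells rose nearly throughout. Of 21 such companions 17 were tested, and 15 rose and 0 fell, with a median log2 fold change of 0.92 against -0.01 over all genes tested. Gata3 (83.3 ± 15.6 and 88.7 ± 28.6 CPM on the negative and positive side) and Entpd1 (10.8 ± 3.80 and 13.9 ± 6.66 CPM) did not pass. DESeq2 called 11 of the 17, and 14 of 16 rose within depth strata, with a median of 0.71.

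Penk, which encodes the opioid precursor proenkephalin, had the highest change among named genes. It stood at 38.7, 117, 92.5 and 119 CPM in Ikzf2-positive cells of libraries 1 to 4 and at 4.26, 29.8, 23.96 and 10.0 CPM in Ikzf2-negative cells. All 4 positive values lay above all 4 negative ones, a 5.60-fold difference (log2 fold change 2.49 ± 0.18, adjusted p = 1.0e-06). Its change was 1.98 within depth strata and 1.33 ± 0.33 in cells of 3000 to 6000 UMIs (adjusted p = 0.022). Few cells carried it: after thinning to 2000 UMIs, a Penk UMI was found in 3.23% ± 0.129 of positive and 1.13% ± 0.539 of negative cells. For this and the thinned shares of marker-positive cells below, gate and side were kept from all UMIs. The fits after thinning counted the genes of the gate again. Tnfrsf4 (OX40, a co-stimulatory receptor) stood at 346, 400.3, 365 and 252 CPM against 154, 159, 148 and 108 CPM. Its sides were also apart, with a change of 1.26 ± 0.04 (adjusted p = 2.0e-10), and its change within depth strata was 1.22. Tnfrsf9 (4-1BB, another co-stimulatory receptor of activated T cells and Treg cells) rose from 32.8 ± 1.85 to 91.4 ± 25.3 CPM, and Areg (amphiregulin, a growth factor in tissue repair) from 68.3 ± 39.2 to 190.2 ± 38.0 CPM. Capg, an actin-capping protein, rose from 61.7 ± 14.3 to 119.7 ± 9.86 CPM and the IL-2 receptor chain Il2ra from 15.7 ± 1.87 to 26.9 ± 6.48 CPM.

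Some low genes of the group are also markers of tissue Treg cells. Klrg1, a receptor for cadherins, stood at 3.71, 25.3, 16.5 and 17.2 CPM against 3.77, 2.50, 4.15 and 5.37 CPM, so library 1 showed no rise. Within depth strata its change was 1.35 (adjusted p = 0.0084), and after thinning it missed the threshold (adjusted p = 0.11). Il1rl1 (ST2, the IL-33 receptor) rose from 4.20 ± 1.30 to 12.3 ± 6.31 CPM (1.245 within depth strata) and Ebi3, a cytokine subunit, from 2.89 ± 0.691 to 8.99 ± 2.09 CPM. The smallest rises that passed were those of Icos (log2 fold change 0.21), Nt5e (0.26) and Tnfrsf18 (0.30), and Klrg1, Icos and Nt5e were not called by DESeq2. Leaving out library 4 ended the calls of Tnfrsf18 (0.25, adjusted p = 0.065) and Nt5e (0.25, adjusted p = 0.085), and leaving out library 2 or 3 ended that of Nt5e (0.25 in both, adjusted p = 0.082 and 0.066).

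The share of cells with several Treg transcripts moved with these genes. At least 3 of 11 Treg markers (Il2ra, Ctla4, Tnfrsf4, Tnfrsf9, Lrrc32, Itgb8, Gpr83, Izumo1r, Il1rl1, Areg and Penk) were found in 32.8% ± 4.12 of Ikzf2-positive and 11.5% ± 2.21 of Ikzf2-negative Ifng cells. Foxp3-positive cells with Ikzf2 gave 91.6% ± 4.88. Cells with neither Ifng nor Foxp3 gave 35.3% ± 3.99 with Ikzf2 and 9.55% ± 3.49 without. After thinning to 2000 UMIs, in the order given, the shares were 13.4% ± 1.71, 4.37% ± 1.10, 77.3% ± 9.31, 21.3% ± 2.94 and 3.85% ± 1.27. The difference between the sides was thus not particular to Ifng cells. Without the cells that held at least 3 of these markers, 303 of 9518 genes (3.18%) were higher and 140 (1.47%) lower. Of 8 companions outside the 11 markers that could then be tested, 2 rose: Capg (0.89 ± 0.12) and Icos (0.27 ± 0.06). Klrg1 then differed by 0.35 and Tnfrsf18 by 0.05, both short of the threshold. This exclusion cannot test for undetected Foxp3, since its markers were also common without Foxp3 and Ikzf2 UMIs. After thinning, Ctla4 was found in 75.8% ± 3.10 of positive and 56.1% ± 6.56 of negative Ifng cells. It also took out deep cells. In library 1 the positive side went from 561 cells with 3811693 UMIs to 359 cells with 1947065. The part of cells with undetected Foxp3 in the group's rise was not tested.

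**Figure D2:**
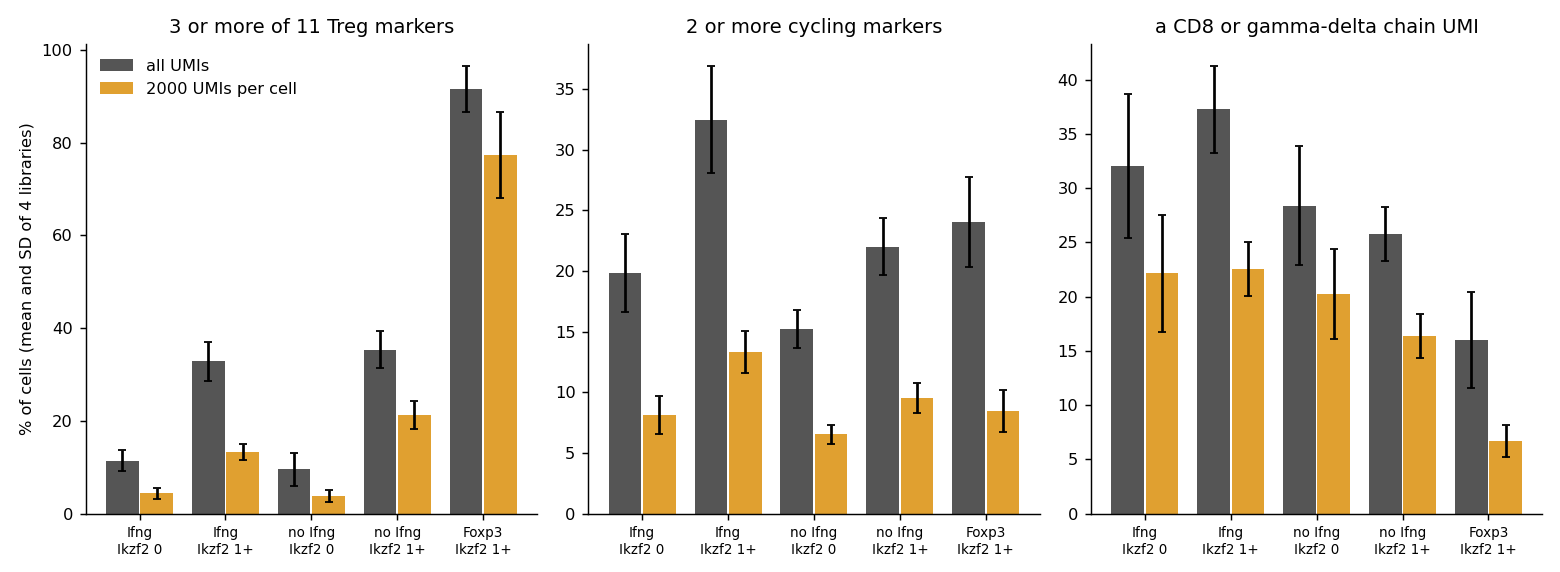
Share of cells (%, mean and SD of 4 libraries) with at least 3 of 11 Treg markers, at least 2 cycling markers, or a UMI of a CD8 or gamma-delta T cell receptor chain, by gate and Ikzf2 side. Grey bars use all UMIs and orange bars 2000 UMIs per cell, with gate and side set on all UMIs. Ikzf2-positive Ifng cells lie above Ikzf2-negative ones for Treg and cycling markers at both depths. For CD8 or gamma-delta chains the positive and negative side lie at 22.5% and 22.2% once thinned.

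Of 11 co-inhibitory receptors tested, 4 rose and 1 fell, with a median log2 fold change of -0.05. Tigit, which binds the ligand CD155, stood at 239, 213, 226 and 214 CPM against 146, 117, 123 and 137 CPM, with no overlap (0.77 ± 0.05, adjusted p = 3.1e-07). Ctla4, which competes with CD28 for its ligands, stood at 1374, 1368, 1336 and 1208 CPM against 966, 1079, 813 and 749 CPM, also with no overlap (0.56 ± 0.05, adjusted p = 2.3e-06). Lag3, which binds MHC class II, rose from 29.3 ± 5.66 to 48.2 ± 3.63 CPM (0.73 ± 0.08) and Pdcd1 (PD-1) from 44.3 ± 8.89 to 61.8 ± 10.8 CPM (0.48 ± 0.06). Cd160, the member that fell, changed by -0.27 (adjusted p = 0.029) and is named after its value was seen. Within depth strata the 4 that rose did so by 0.85, 0.66, 0.78 and 0.49. Without the cells that held at least 3 Treg markers, Tigit, Lag3 and Pdcd1 still passed, at 0.77, 0.83 and 0.42.

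Among secreted or membrane-bound cytokines and chemokines, 5 of 22 tested rose and 6 fell. Tnfsf8 (CD30 ligand, a member of the TNF family) stood at 174, 174, 126 and 146 CPM against 71.3, 74.8, 52.5 and 46.4 CPM. The sides were apart in every library, at 2.55-fold (log2 fold change 1.35 ± 0.07, adjusted p = 1.5e-08). Il10, the anti-inflammatory cytokine that Th1 cells as well as Treg cells can make, stood at 67.9, 96.7, 96.6 and 81.5 CPM against 36.6, 63.9, 41.9 and 38.5 CPM (0.93 ± 0.08, adjusted p = 5.7e-06). Its sides did not overlap, and neither gene lost its call within depth strata (1.31 and 1.16) or without the cells with Treg markers (1.29 and 1.01).

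Ccl5, Ccl4 and Ccl3, chemokines of the CC family, fell. Ccl5, made by effector and cytotoxic T cells, stood at 2889.7, 2349.6, 3525 and 3612 CPM against 4248, 4083, 5152 and 6710.5 CPM. All positive values lay below all negative ones (-0.70 ± 0.04, adjusted p = 1.5e-07). Ccl4 stood at 135, 123, 159 and 217 CPM against 189.7, 364, 326 and 576 CPM, where the ranges overlapped although each library fell (-1.14 ± 0.11, adjusted p = 1.3e-05). Ccl3 fell from 21.4 ± 18.8 to 10.97 ± 5.44 CPM (-0.91 ± 0.18), and without library 4 its change was -0.48 (adjusted p = 0.16). Within depth strata Ccl5 fell by 0.41 and Ccl4 by 0.73, and Ccl3 no longer passed (-0.65). Tnfsf14 (LIGHT, a TNF family ligand) fell from 28.3 ± 7.95 to 18.5 ± 2.48 CPM (-0.61 ± 0.12), with an adjusted p of 0.051 without library 4.

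The Th1 axis did not move as 1 block: 3 of 17 tested genes rose and 4 fell, with a median of -0.05. Bhlhe40, a transcription factor that supports Ifng and restrains Il10 expression in Th1 cells, stood at 1100.0, 1233, 1205 and 958 CPM against 963, 994, 837 and 657 CPM. It rose in each library, although library 4 of the positive side lay below the highest negative values (0.39 ± 0.05, adjusted p = 6.9e-05). The IL-18 receptor chain Il18r1 rose from 197 ± 22.8 to 224 ± 35.8 CPM (0.17 ± 0.05, adjusted p = 0.043) and lost its call in DESeq2 and without library 1, 3 or 4, where its change was 0.19, 0.11 and 0.19.

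Besides Ccl5, the members that fell were Cxcr3, a chemokine receptor of Th1 cells (186, 199, 209.7 and 234 CPM against 236, 235, 290.2 and 259 CPM; -0.30 ± 0.05, adjusted p = 0.0013), Runx3, a partner of T-bet (-0.17 ± 0.05), and Nkg7, a protein of cytotoxic granules (-0.15 ± 0.03). Each Cxcr3 value of the positive side lay below each of the negative side. Runx3 lost its call without library 1, 2 or 4 (-0.14, -0.18 and -0.16). Tbx21 itself stood at 71.4, 89.8, 104 and 92.4 CPM against 111, 108, 98.1 and 107 CPM (-0.26 ± 0.08, adjusted p = 0.071). Only library 3 went the other way, and without it Tbx21 changed by -0.36 (adjusted p = 0.0039). Il12rb2, the inducible IL-12 receptor chain, stood at 377 ± 54.6 against 368 ± 42.8 CPM (0.03 ± 0.08), and at 0.17 with an adjusted p of 0.035 without library 1. The signal transducer Stat4 (274 ± 10.3 against 251 ± 8.15 CPM), the receptor chains Il18rap, Ifngr1, Ifngr2, Il12rb1 and Il27ra, and the T-box factor Eomes, at 4.31 ± 3.84 against 7.41 ± 3.40 CPM, did not pass the threshold either.

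The counts of this group were different within depth strata, where 6 of 16 genes of the Th1 axis rose and 2 fell. Bhlhe40 (0.50) and Il18r1 (0.38) were joined by Il18rap (0.31), Ifngr1 (0.27) and Stat4 (0.22). Ccl5 (-0.41) and Cxcr3 (-0.24) were the 2 that fell, while Nkg7 (-0.04), Runx3 (-0.12) and Tbx21 (-0.10) did not pass. When doublet-scored cells, cells with Treg markers and cells with cycling markers were left out as well, an alternative added after the data were seen, 164 of 6143 genes (2.67%) were higher and 70 (1.14%) lower. Of 15 genes of the Th1 axis 7 then rose and 2 fell, among them Bhlhe40 at 0.54, Il18r1 at 0.46 and Il12rb2 at 0.33, against Ccl5 at -0.38 and Cxcr3 at -0.23. Tnfsf8 (1.38), Il10 (1.21), Tigit (0.93), Lag3 (0.93), Capg (0.72) and Pdcd1 (0.58) also passed among those cells, as did the fall of Ccl4 (-0.84).

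**Figure D3:**
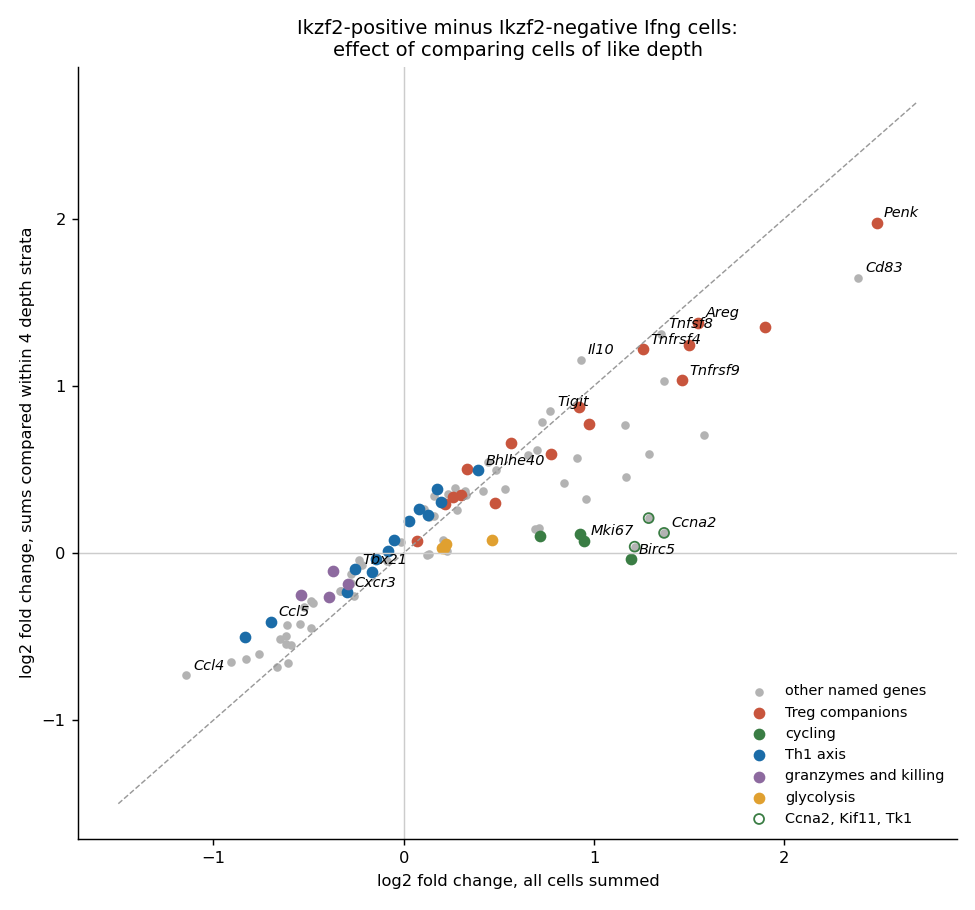
Log2 fold change between Ikzf2-positive and Ikzf2-negative Ifng cells for the named genes, with all cells of a side summed (x axis) and with sums compared within 4 depth strata (y axis); each point is a gene and the dashed line marks equal values. Treg companions such as Tnfrsf4 (1.26 and 1.22) lie near the line, while genes of the cell cycle such as Mki67 (0.95 and 0.07) and Birc5 (1.20 and -0.04) lie near 0 on the y axis.

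Of 11 genes of killing tested, 5 fell and 2 rose, with a median of -0.22. Prf1 (perforin, the pore-forming protein) fell from 33.2 ± 6.99 to 22.9 ± 4.58 CPM (-0.54 ± 0.09), Fasl, the death ligand of Fas, from 264 ± 24.8 to 205 ± 35.9 CPM (-0.37 ± 0.05), Gzmk (granzyme K) from 192 ± 32.4 to 147 ± 32.6 CPM (-0.39 ± 0.06) and Ctsw, a protease of cytotoxic cells, from 510.4 ± 28.0 to 417 ± 18.3 CPM (-0.29 ± 0.04). The other member that fell was Tnfsf10 (-0.22), and those that rose were Srgn (0.14) and Serpinb6b (0.21), all named after their values were seen. Within depth strata 2 fell and 3 rose, and Prf1 (-0.25) and Fasl (-0.11) did not pass. Gzmk (-0.26) and Ctsw (-0.18) were the members that fell there.

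Receptors of co-stimulation and of cytokines gave a mixed picture apart from the companions above. Of 16 co-stimulatory receptors 5 rose and 2 fell. Tnfrsf1b, the second TNF receptor, rose from 139 ± 26.0 to 167 ± 24.6 CPM (0.27 ± 0.05), whereas Slamf7, a receptor of activated and cytotoxic lymphocytes, fell from 195 ± 20.1 to 155 ± 20.7 CPM (-0.33 ± 0.05). Of 23 cytokine receptors 4 rose and 2 fell, and Il21r, the IL-21 receptor, rose from 356 ± 75.6 to 418 ± 77.9 CPM (0.23 ± 0.04). Within depth strata Tnfrsf1b, Slamf7 and Il21r changed by 0.39, -0.23 and 0.35, and all 3 passed.

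NK-type receptors and adaptors had 3 of 10 tested genes higher and 2 lower. Hcst (DAP10, an adaptor of NKG2D) fell from 891 ± 41.7 to 751 ± 60.7 CPM (-0.25 ± 0.04) and did not pass within depth strata (-0.10). Fcer1g, an adaptor of Fc receptors, rose from 7.02 ± 3.71 to 13.6 ± 7.56 CPM and Crtam, a receptor of cytotoxic lymphocytes, from 10.3 ± 4.17 to 23.5 ± 11.1 CPM. Crtam was lower in library 3 (10.5 against 13.96 CPM), and its adjusted p was 0.069 without library 4. Neither gene passed within depth strata (0.32 and 0.45) or with DESeq2.

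The sorted gate was CD4+, yet transcripts of CD8 or gamma-delta T cell receptor chains (Cd8a, Cd8b1, Trdc, Tcrg-C1, Tcrg-C2 and Tcrg-C4) were found in 37.2% ± 3.97 of Ikzf2-positive and 32.0% ± 6.64 of Ikzf2-negative cells, or 22.5% ± 2.47 and 22.2% ± 5.38 after thinning. Over all sums, the gamma constant chains Tcrg-C2 and Tcrg-C4 stood at 42.7 to 97.2 CPM. Cd8b1 stood at 3.50 to 18.2 CPM and the delta constant chain Trdc at 0.179 to 3.74 CPM. Whether cells with such a UMI were CD8 or gamma-delta T cells was not tested. Library 4 stood apart, with thinned shares of 23.8% on the positive and 29.1% on the negative side. Cd8a stood at 87.6 CPM on its negative side, against 12.8 to 21.7 CPM in the other negative sums and 22.4 CPM on its positive side. The highest negative values of Ccl5, Ccl4 and Ccl3 lay in the same library. Of 6 such chain and lineage genes tested, Tcrg-C1 alone passed (0.45 ± 0.13, adjusted p = 0.043), with 119 CPM in library 3 against 19.9 to 47.9 CPM in the other positive sums. Without library 3 its change was 0.17 (adjusted p = 0.49), and without library 4 it was 0.40 (adjusted p = 0.16). Leaving out every cell with such a UMI kept the falls of Ccl5 (-0.71) and Ccl4 (-0.85) and the rises of Tnfsf8 (1.51) and Il10 (1.14), although Il18r1 (0.16) then missed the threshold.

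Among genes of T cell memory and tissue residence, Il7r, the receptor of the survival cytokine IL-7, stood at 424, 423, 501 and 481 CPM against 803, 559, 619 and 582 CPM, with no overlap (-0.48 ± 0.07, adjusted p = 0.00074). Klf3, a zinc finger factor, fell from 98.1 ± 5.60 to 70.5 ± 11.2 CPM (-0.49 ± 0.07) and Bcl2, the survival factor, from 118 ± 24.5 to 96.3 ± 12.3 CPM (-0.28 ± 0.06; -0.25 and adjusted p = 0.076 without library 4). Of 15 memory genes tested 3 fell and 2 rose, and of 25 homing and retention genes 5 fell and 3 rose. The collagen-binding integrin chains Itga1 (49.4 ± 3.52 to 34.5 ± 3.69 CPM, -0.52 ± 0.08) and Itgb1 (55.9 ± 8.56 to 37.6 ± 12.6 CPM, -0.59 ± 0.11) fell together, and the purinergic receptor P2rx7 fell by 0.28. Ccr8, a chemokine receptor known from Th2 and tissue Treg cells, rose from 14.5 ± 4.30 to 27.7 ± 11.05 CPM (0.91 ± 0.11). Satb1, a chromatin organizer, rose from 30.1 ± 13.8 to 42.9 ± 13.4 CPM (0.53 ± 0.10), and Gpr34, a lysophospholipid receptor, fell from 62.1 ± 8.33 to 44.3 ± 5.97 CPM (-0.49 ± 0.06). Ccr6, a receptor of Th17 and Treg cells, rose from 8.25 ± 1.64 to 14.8 ± 2.79 CPM (0.84 ± 0.14) and missed the threshold within depth strata (0.42). Ccr8 changed by -0.27 without the cells with Treg markers and missed the threshold within depth strata (0.57), whereas Itga1, Itgb1, P2rx7, Klf3 and Il7r fell within depth strata by 0.32, 0.55, 0.18, 0.45 and 0.30, and Bcl2 (-0.13) did not pass.

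Transcription factors of T cell differentiation mostly rose: 11 of 21 were higher and 2 lower, with a median of 0.27. Tox2, an HMG-box factor of follicular helper and exhausted T cells, stood at 48.3, 42.9, 38.5 and 39.7 CPM against 23.9, 21.0, 15.3 and 15.4 CPM (1.16 ± 0.09, adjusted p = 2.2e-06). No value of its sides overlapped. Its relative Tox rose from 58.0 ± 12.01 to 77.1 ± 7.49 CPM (0.42 ± 0.07), the nuclear receptor Rora from 367 ± 45.4 to 462 ± 65.7 CPM (0.33 ± 0.04) and the hypoxia factor Hif1a from 211 ± 21.9 to 259 ± 25.7 CPM (0.30 ± 0.05). Within depth strata 10 of 19 rose and 1 fell, with Tox2 at 0.76. Tox2 stood at 0.38 and did not pass once doublet-scored, Treg-marker and cycling cells were left out as well.

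Genes induced through the T cell receptor did not share a direction, with 4 of 17 higher, 1 lower and a median of 0.06. Rel, an NF-kB subunit, stood at 225, 241, 207 and 209.7 CPM against 168, 148, 133 and 114 CPM (0.66 ± 0.06, adjusted p = 7.0e-06), and Batf, an AP-1 factor, rose from 150.2 ± 27.6 to 188 ± 40.3 CPM. Dusp2, a phosphatase of MAP kinases, fell from 288 ± 49.8 to 196 ± 25.4 CPM (-0.54 ± 0.05, adjusted p = 5.6e-06). Within depth strata the changes of Rel, Batf and Dusp2 were 0.58, 0.37 and -0.43. Cd83, a surface protein of activated lymphocytes, rose 5.24-fold from 9.29 ± 3.58 to 49.9 ± 9.57 CPM, and by 1.65 on the log2 scale within strata against 2.39 overall. Without the cells with Treg markers its change was 1.22 and missed the threshold.

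Every one of 14 cell cycle genes rose, with a median of 0.94. Mki67, the proliferation marker Ki-67, stood at 113, 91.4, 82.9 and 108 CPM against 60.5, 56.0, 32.3 and 57.3 CPM (0.95 ± 0.08, adjusted p = 2.7e-06). Top2a, a topoisomerase of dividing cells, rose from 72.3 ± 18.4 to 137 ± 23.5 CPM, Birc5 (survivin) from 35.4 ± 13.4 to 80.2 ± 15.96 CPM and Mcm5, a replication helicase subunit, from 38.7 ± 3.45 to 63.7 ± 10.1 CPM. With edgeR within depth strata 0 of the 14 passed in either direction, with a median of -0.02, and Mki67 changed by 0.07. At least 2 of these markers were found in 32.5% ± 4.41 of Ikzf2-positive and 19.9% ± 3.21 of Ikzf2-negative cells, or 13.3% ± 1.73 and 8.10% ± 1.57 after thinning. Ccna2, Kif11 and Tk1, further cell cycle genes among the 12 largest rises, changed by 0.12, 0.21 and 0.04 within strata.

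Of 15 glycolytic enzymes and transporters 5 rose and 0 fell, with a median of 0.15, among them Tpi1 (0.46 ± 0.07) and Gapdh (0.22 ± 0.03). Within depth strata 0 of 14 passed in either direction, and Tpi1 and Gapdh changed by 0.08 and 0.05. In oxidative phosphorylation 2 of 17 rose (Atp5g3 by 0.20 and Atp5b by 0.12) and 0 passed within strata. The interferon response had 1 of 16 higher (Ifi27l2a, 0.23 overall and 0.01 within strata), and T cell receptor signalling had 1 of 20 higher (Sla, an adaptor, 0.28) and 2 lower (Lat, -0.09, and Cd3g, -0.08). Lat lost its call without library 2, 3 or 4, and Cd3g and Atp5b lost theirs without library 1, 2 or 4. Ribosomal protein genes had 9 of 90 higher and 18 lower, with a median of -0.03, and within depth strata 0 of 88 higher and 22 lower.

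Nuclear receptors and genes that tissue dissociation is known to induce moved in both directions. Of 8 genes of aryl hydrocarbon and nuclear receptor signalling 3 rose and 2 fell. Rara, a retinoic acid receptor, fell by 0.33 ± 0.09 and lost its call without library 1 or 4 (-0.33 and -0.22). Nr3c1, the glucocorticoid receptor, rose by 0.16 ± 0.04 (0.13 and not called without library 4), and Tiparp, a target of the aryl hydrocarbon receptor, fell by 0.22 ± 0.05 (-0.19 and not called without library 2). Of 15 dissociation-induced genes 3 rose and 2 fell, among them Jun (-0.24 ± 0.05), Jund (0.13 ± 0.03), Dusp1 (0.16 ± 0.04) and Hsp90aa1 (0.13 ± 0.03). Dusp1 lost its call without library 3 or 4 (0.11 and 0.15) and Hsp90aa1 without library 1 or 4 (0.10 and 0.14). Within depth strata Jun (-0.04), Tiparp (-0.07) and Hsp90aa1 (-0.0050) did not pass, while Dusp1 changed by 0.34, Jund by 0.21 and Nr3c1 by 0.22.

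Some further genes of the 12 largest falls are less often described in T cells. St3gal6, a sialyltransferase, stood at 63.7, 68.7, 72.5 and 66.6 CPM against 122, 91.2, 97.2 and 105 CPM (-0.62 ± 0.08, adjusted p = 0.00013), with no overlap. Atp8a2, a phospholipid flippase, fell from 62.3 ± 12.3 to 40.6 ± 7.23 CPM (-0.62 ± 0.07), and Dopey2 from 28.4 ± 3.91 to 18.4 ± 1.84 CPM (-0.62 ± 0.11). Pik3ip1, an inhibitor of PI3 kinase, fell from 20.2 ± 6.05 to 11.2 ± 1.78 CPM (-0.83 ± 0.14). All 4 genes fell within depth strata too, by 0.43, 0.50, 0.55 and 0.63. Apol7b fell from 30.8 ± 4.34 to 18.2 ± 3.15 CPM (-0.76 ± 0.10), Nedd4, a ubiquitin ligase, from 37.5 ± 5.33 to 24.2 ± 6.77 CPM (-0.65 ± 0.10) and Plekhf1 from 20.4 ± 5.04 to 12.8 ± 3.17 CPM (-0.67 ± 0.12). Among the largest rises, Nav2, a microtubule-associated protein, stood at 31.0, 25.6, 18.1 and 24.8 CPM against 13.1, 7.91, 6.60 and 10.7 CPM, with no overlap (1.37 ± 0.13, adjusted p = 6.7e-06; 1.03 within depth strata). Dusp14, a phosphatase, rose from 12.5 ± 5.96 to 31.1 ± 13.97 CPM (1.29 ± 0.17), with its highest value, 51.9 CPM, in library 2.

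Transcripts of other cell types were mostly low, apart from B and plasma cell markers in some libraries, and not all level between the sides. Igha, Igkc and Jchain stood at 593, 420 and 449 CPM on the positive side of library 2, and at 320, 210 and 376 CPM on its negative side. In library 1 they stood at 0.262, 2.36 and 2.89 CPM on the positive and 2.56, 13.9 and 9.28 CPM on the negative side. B and plasma cell markers summed to 95.7 to 1651 CPM of the positive and 146 to 1059 CPM of the negative side, with Ms4a1 at 0 on both, and 1 of 5 tested rose (Cd74). Myeloid markers summed to 166 to 286 and 134 to 187 CPM, with S100a8 at 0, and 2 of 5 tested rose: Lyz2 (0.69 ± 0.17) and Cd68 (0.70 ± 0.20). Epithelial markers summed to 9.12 to 14.9 and 10.6 to 15.3 CPM, with Krt20, Fabp1, Vil1, Lypd8 and Phgr1 at 0. Tyrobp, an adaptor of NK and myeloid cells, stood at 36.6 CPM in library 1 and at 6.79 to 9.22 CPM in the other positive sums (1.58 ± 0.33), and without library 1 its change was 0.75 (adjusted p = 0.18). Lyz2 lost its call without library 1 or 4 (0.79 and 0.61), Cd68 without library 1, 3 or 4 (0.49, 0.64 and 0.75), and Cd74, Lyz2, Cd68 and Tyrobp did not pass within depth strata (0.15, 0.14, 0.62 and 0.70). The part of attached myeloid or B cell transcripts in other results was not tested.

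The genes near the Ikzf2 threshold were followed in cells of 3000 to 6000 UMIs, as a description with no test. There 3249 cells held no Ikzf2 UMI, 684 held 1, 263 held 2 and 233 held 3 or more, with library medians of 3770 to 4640.5 UMIs. Tnfrsf4 stood at 126 ± 27.8 CPM with 0, 255 ± 51.4 with 1, 419 ± 163 with 2 and 598 ± 114 with 3 or more Ikzf2 UMIs. Tigit went from 125 ± 16.1 to 184.5 ± 5.60, 256.5 ± 36.0 and 456 ± 75.0 over the same steps. Tnfsf8 went from 55.7 ± 12.6 to 116 ± 34.1, 162 ± 68.7 and 204 ± 47.4. For these 3 genes the mean of the libraries was thus higher at each step. The mean with a single Ikzf2 UMI already differed from that with none by more than the SD between libraries of either. These SDs do not measure the spread between cells. Tnfrsf4 and Tigit rose at each step in every library. Tnfsf8 fell from 95.2 with 1 to 75.9 CPM with 2 in library 3, and from 244 with 2 to 190 CPM with 3 or more in library 2.

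Other genes differed at only some of the steps or in some of the libraries. Penk averaged 17.7 ± 18.7, 21.8 ± 16.3 and 20.3 ± 22.6 CPM with 0, 1 and 2 Ikzf2 UMIs and 122 ± 101 with 3 or more, but libraries differed. In libraries 1 and 4 it went from 3.64 and 3.35 CPM with none to 37.3 and 30.5 with 1, then 16.2 and 4.61 with 2. In library 2 it stood at 42.9 CPM with none, at 0 and 7.07 with 1 and 2 and at 185 with 3 or more, so that it was lower with 1 or 2 Ikzf2 UMIs than with none. Klrg1 was at 2.40 ± 1.27 with none and at 0.345 ± 0.690, 0.703 ± 1.41 and 16.6 ± 33.2 over the later steps, where library 2 alone was high (66.3 with 3 or more) and libraries 1, 3 and 4 lay below their own value with none at each step. Il1rl1 was at 3.92 ± 1.12, 9.60 ± 8.81, 9.16 ± 11.1 and 8.20 ± 13.6. It was higher with 1 or 2 Ikzf2 UMIs than with none in libraries 2 and 3 but not in libraries 1 and 4. Cxcr3 was at 265 ± 28.2, 241 ± 23.2, 234 ± 54.3 and 159 ± 27.4, and the step of its largest drop differed between libraries. In library 3 it went from 304 CPM with none to 228 with 1, and in library 1 from 250 with 1 to 178 with 2. In library 2 it rose from 218 with 1 to 308 with 2 and stood at 128 with 3 or more. Other genes of the Th1 axis did not share this course. Bhlhe40 was at 898 ± 164, 1212 ± 132, 1304 ± 145 and 1729 ± 237, above its value with none at each later step in every library. Il12rb2 was at 395 ± 54.1, 513 ± 93.4, 543 ± 108 and 664 ± 173. In library 1 Il12rb2 was lower with 1 (389) and with 3 or more (445) than with none (461). Tbx21 was at 116 ± 6.16, 102 ± 12.1, 121 ± 13.6 and 111 ± 18.9. Ccl5 was at 5410.4 ± 1475 with 0 and at 3767 ± 635 with 1 Ikzf2 UMI, then at 4043 ± 690.2 and 3585 ± 526. Ccl4 was at 406 ± 244, 189 ± 84.2, 147 ± 76.7 and 395 ± 301, and with 3 or more it was higher than with none in libraries 1, 2 and 4 (324 against 238, 408 against 370 and 788 against 761 CPM) and lower in library 3 (60.4 against 256 CPM). Mki67 lay between 21.2 and 27.4 at all 4 steps, with SDs of 5.75 to 16.4.

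**Figure D4:**
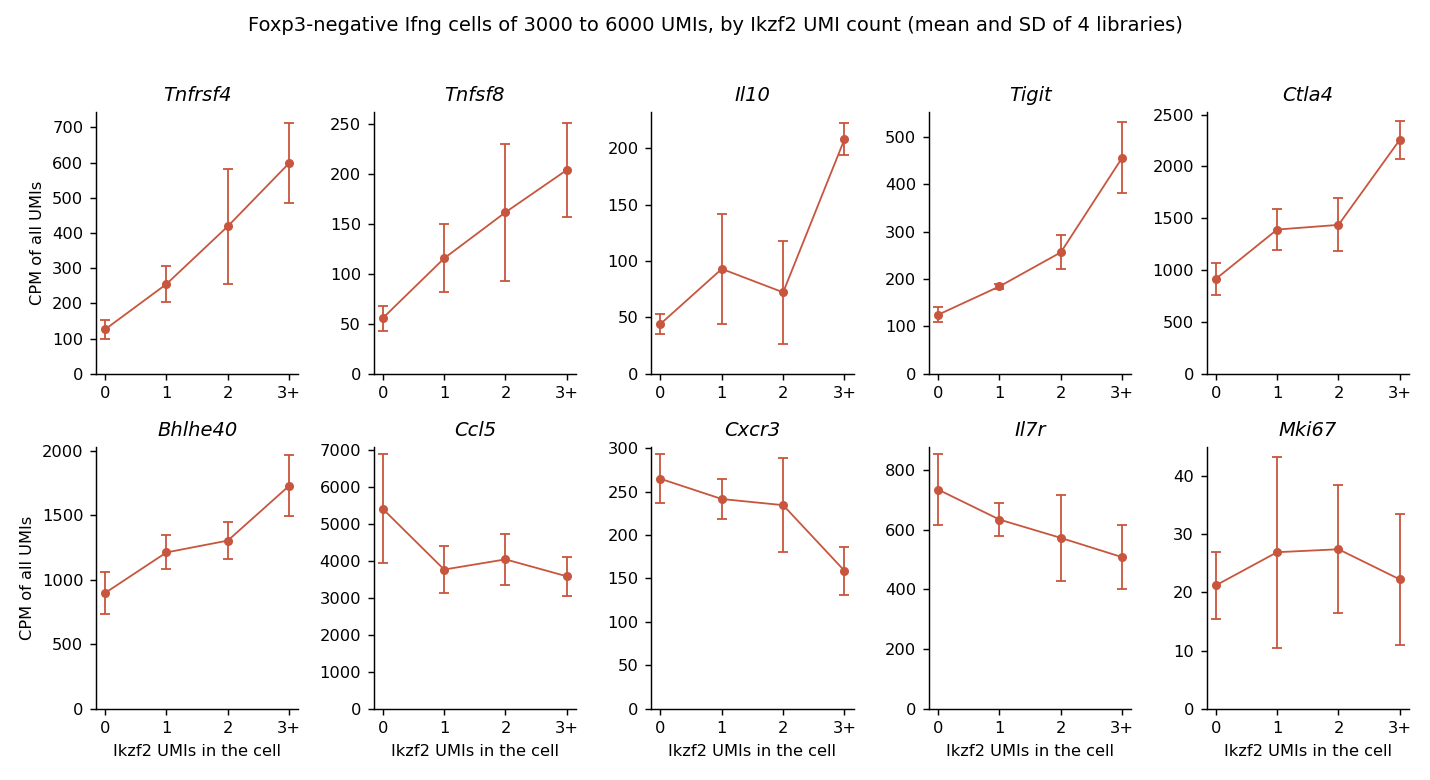
Levels (CPM of all UMIs, mean and SD of 4 libraries, y axis from 0) of 10 genes in Foxp3-negative Ifng cells of 3000 to 6000 UMIs, by the number of Ikzf2 UMIs in the cell (0, 1, 2, 3 or more). The means of Tnfrsf4, Tnfsf8 and Tigit are higher at each step. The mean of Ccl5 drops between 0 and 1, and that of Mki67 stays between 21.2 and 27.4.

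To learn whether the Ikzf2 contrast is particular to Ifng cells, it was set against the same contrast in cells with neither Ifng nor Foxp3 and in Foxp3-positive cells, with 24 sums in a single edgeR fit and the difference of contrasts as the test. Against Ifng-negative cells 24 of 10642 genes differed (0.226%), and against Foxp3-positive cells 19 (0.179%), with 557 and 896 genes at an unadjusted p under 0.05. Of the 24, 11 lay under 20 CPM in Ifng cells. The Foxp3-positive cells without Ikzf2 numbered 30 to 48 per library, which limits the second test.

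Several Treg companions rose less with Ikzf2 in Ifng cells than in Ifng-negative cells. Tnfrsf4 rose by 1.26 in Ifng cells and by 1.94 in Ifng-negative cells, from 142 ± 23.5 to 339.8 ± 63.6 CPM and from 104 ± 27.2 to 395 ± 55.9 CPM, a difference of -0.68 ± 0.09 (adjusted p = 0.00013). Areg differed by -1.28 ± 0.20 (1.55 against 2.83), Tnfrsf9 by -1.32 ± 0.21 (1.46 against 2.77) and Capg by -0.75 ± 0.13 (0.97 against 1.72). Mmd, a membrane protein named for monocyte differentiation, differed by -0.72 ± 0.13 (0.44 against 1.16). Capg lost its call without library 2 or 3 (-0.55 and -0.71) and Mmd without library 3 or 4 (-0.67 and -0.65). In cells of 3000 to 6000 UMIs the difference of Areg was -1.01 and missed the threshold. The co-inhibitory receptors Tigit and Pdcd1 also rose less in Ifng cells. Tigit rose by 0.77 against 1.39, a difference of -0.62 ± 0.08 (adjusted p = 0.00013) that passed without any 1 library. Pdcd1 rose by 0.48 against 1.09, a difference of -0.61 ± 0.10 (adjusted p = 0.0036; 0.064 without library 3).

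Il10 differed in opposite ways from both other gates. In Ifng cells it rose by 0.93 ± 0.14, in Ifng-negative cells by 2.33 ± 0.16 and in Foxp3-positive cells it fell by 0.88 ± 0.17. Its levels with and without Ikzf2, as scaled in that fit, were 85.5 ± 13.9 and 45.2 ± 12.8 CPM, 50.8 ± 13.6 and 10.2 ± 3.51 CPM, and 259 ± 55.8 and 513 ± 373 CPM in that order of gates. The difference was -1.40 ± 0.22 from Ifng-negative cells (adjusted p = 0.0017) and 1.81 ± 0.22 from Foxp3-positive cells (adjusted p = 0.00017), and without library 1 the latter was 1.39. With 1 block for each library in place of 1 for each library and gate, the difference from Ifng-negative cells was -1.39 and missed the threshold.

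Tnfsf8 rose with Ikzf2 by 1.35 ± 0.10 in Ifng cells and by 1.17 ± 0.09 in Ifng-negative cells, but changed by -0.19 ± 0.22 in Foxp3-positive cells. The difference from Foxp3-positive cells was 1.54 ± 0.26 (adjusted p = 0.015), and without library 3 or 4 it was 1.42 and 1.16 and missed the threshold. With 1 block for each library the difference of Ccr2 was 1.49 and missed the threshold, as did that of Ly6a after thinning (0.51). Ccr2, a chemokine receptor, and Ly6a (Sca-1) fell with Ikzf2 in Foxp3-positive cells by 1.62 and 1.33, against changes of -0.10 and -0.30 in Ifng cells, differences of 1.52 ± 0.19 and 1.03 ± 0.13. Ctla4 rose by 0.56 in Ifng cells and changed by -0.10 in Foxp3-positive cells, a difference of 0.66 ± 0.12 (adjusted p = 0.023) that missed the threshold without library 3 or 4 (0.68 and 0.62). The antigen presentation genes Cd74 and H2-Aa went the other way between Ifng and Ifng-negative cells, by 1.26 ± 0.18 and 2.09 ± 0.38. The myeloid markers Lyz2 and Tyrobp moved with them, with differences of 2.19 ± 0.32 (adjusted p = 0.00089) and 3.33 ± 0.54 (adjusted p = 0.0036), and their part in the result was not tested. Lyz2 differed by 2.08 after thinning and by 2.87 in cells of 3000 to 6000 UMIs, both short of the threshold. Tyrobp differed by 2.76 without library 1 (adjusted p = 0.14), and by -0.61 after thinning and -0.86 in cells of 3000 to 6000 UMIs, where it did not pass. Cd74 differed by -0.14 and H2-Aa by 0.93 after thinning, where neither passed, and H2-Aa also lost its call without library 1 or 4 (1.88 and 1.74). Cd74 and H2-Aa also missed the threshold with 1 block for each library (1.24 and 2.12) and in cells of 3000 to 6000 UMIs (0.70 and 1.98).

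**Figure D5:**
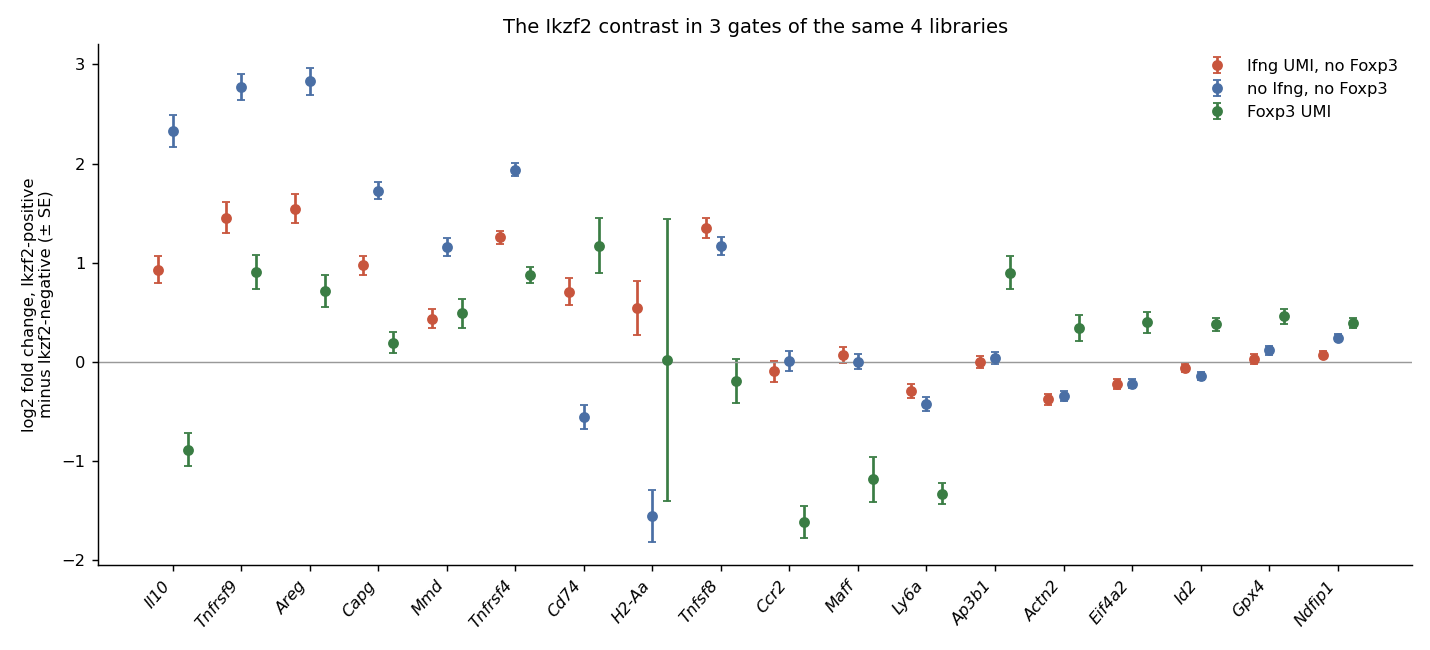
Log2 fold change between Ikzf2-positive and Ikzf2-negative cells (y axis, ± SE from the fit of 24 sums) of 18 genes that differed between gates, in Foxp3-negative Ifng cells (red), Ifng-negative Foxp3-negative cells (blue) and Foxp3-positive cells (green). Il10 lies at 0.93, 2.33 and -0.88, while Tnfsf8 lies at 1.35 and 1.17 in the Foxp3-negative gates and at -0.19 in Foxp3-positive cells.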

How the data were processed

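Gene expression was measured in 4 single-cell libraries. The deposited values are UMI counts per gene and cell barcode, made with Cell Ranger 3.0.2 on mm10 per the submitters' processing notes, with barcodes already filtered. The barcodes carried 23918884 to 28783972 UMIs per library, and no depth beyond these counts was used. Filters, gates and sums were computed in Python 3.11.15, with Scrublet in scanpy 1.11.5 for doublet scores at 0.8% expected per 1000 barcodes. Likely doublets were kept in the comparison and left out in an alternative. Sums per library and side were tested with edgeR 4.0.16 in R 4.3.3 (quasi-likelihood, TMM scaling, filterByExpr, Benjamini-Hochberg) after a test on simulated data, and DESeq2 1.42.0 was an alternative. All adjusted p-values in the text are from edgeR unless DESeq2 is named, and SEs are the fitted change over the root of the F statistic.

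The library number was a block, since both sides of a pair come from the same library: deviations of same-numbered sums from their side's mean correlated at 0.64, 0.53, 0.25 and 0.53 over 5555 genes. The same fit on 24 sums of 3 gates, with a block for each library and gate, tested differences between gates. Gene positions come from GENCODE vM21, which held 30934 of 31053 gene IDs. The members and the gene lists were chosen with earlier results of these data known. Named are the 12 highest and 12 lowest changes of at least 20 CPM with the same direction in 4 libraries (no predicted, receptor, immunoglobulin, ribosomal or mitochondrial genes), up to 4 called members per list, all measured members of the Th1, Ikaros and Treg lists, up to 6 genes per direction between gates, and all of these that also passed between gates. Innate-like T cell genes had 0 of 6 called with edgeR, and 0 with DESeq2. Stromal markers summed to 34.7 to 48.0 CPM over both sides, and mast cell, basophil and erythroid markers to 0.633 to 4.13 CPM. A few members of the lists are counted in the list totals and not reported here by name.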

Additional observations from a re-analysis of the deposited data

Results flagged for a closer look

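In 8 of 198 groups of 4 libraries checked, 1 library lay far from the other 3, where chance alone flags about 1 in 20. On the Ikzf2-negative side these were Dusp2 in library 1 (213 CPM, the nearest other library at 308), Nkg7 in library 1 (1115, nearest 1413) and Mki67 in library 3 (32.3, nearest 56.0). On the Ikzf2-positive side they were Gapdh in library 1 (775, nearest 708), Dusp14 in library 2 (51.9, nearest 25.4), Ifi27l2a in library 4 (967, nearest 722), Dopey2 in library 4 (21.2, nearest 17.8) and Tnfsf14 in library 1 (14.9, nearest 19.3).

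The Ikzf2 contrast in Ifng cells differed from that in Ifng-negative cells, by the test of the difference, for Il10 (-1.40), Tnfrsf9 (-1.32), Areg (-1.28), Capg (-0.75), Mmd (-0.72), Tnfrsf4 (-0.68), Tigit (-0.62), Pdcd1 (-0.61), Cd74 (1.26), H2-Aa (2.09), Lyz2 (2.19) and Tyrobp (3.33). It differed from that in Foxp3-positive cells for Il10 (1.81), Tnfsf8 (1.54), Ccr2 (1.52), Maff (1.252), Ly6a (1.03), Capg (0.78), Ctla4 (0.66), Ndfip1 (-0.32), Gpx4 (-0.43), Id2 (-0.44), Eif4a2 (-0.62), Actn2 (-0.72) and Ap3b1 (-0.90). Of the latter, Maff, Ndfip1, Eif4a2, Actn2 and Ap3b1 lost their calls whichever library was left out, Capg and Gpx4 without library 1, 3 or 4, Id2 without library 1 or 3, and Ctla4 without library 3 or 4. The Foxp3-positive cells without Ikzf2 were 30 to 48 per library.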

How the results depend on the processing

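The first fit called 993 genes (638 higher, 355 lower). The totals that follow are each setting's own calls, and not all of them were among the 993. They were 257 with DESeq2 (193 and 64), 343 in cells of 3000 to 6000 UMIs (244 and 99) and 493 in depth strata (334 and 159). After thinning 159 passed (126 and 33). The total was 543 with at least 2 Ifng UMIs (355 and 188) and 1053 with at least 2 Ikzf2 UMIs (715 and 338). It was 443 without Treg-marker cells (303 and 140), 628 without CD8 or gamma-delta cells (418 and 210) and 430 without cycling cells (326 and 104). Shared with the first fit were 163 higher and 82 lower calls at 3000 to 6000 UMIs, 225 and 128 in strata and 94 and 21 after thinning. Strata without doublets, Treg-marker and cycling cells, chosen after seeing the data, gave 234 (164 and 70), with 1 call opposite to the first fit. Without a filter on low counts 560 were lower. Leaving out 1 library gave 651 to 838 calls, 430 to 565 higher and 221 to 273 lower. Without the replicate block, which pairs the sides by library, 135 passed (103 and 32). Genes that define an exclusion were given no value there. Fewer cells, UMIs or genes entered most of these settings, and beyond that the cause was not tested.

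Against Ifng-negative cells 24 genes differed. The total was 15 with 1 block for each library (15 of them among the 24), 37 after thinning (10 among the 24) and 15 to 36 with a library left out (12 to 20 among the 24). Against Foxp3-positive cells 19 differed. The total was 12 without likely doublets (9 among the 19), 68 in cells of 3000 to 6000 UMIs (10 among the 19), 11 after thinning (6 among the 19) and 6 to 19 with a library left out (4 to 10 among the 19). The Ikzf2 share of 32.0% was 18.1% after thinning.

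Signs turned for these genes, with no cause tested. In cells of 3000 to 6000 UMIs they were Tiparp (0.052), Nkg7 (0.0090), Crtam (-0.40), Cd3g (0.035) and Hsp90aa1 (-0.056). In depth strata they were Atp5b (-0.014), Cd3g (0.019), Birc5 (-0.037) and Hsp90aa1 (-0.0050). After thinning they were Ccna2 (-0.63), Tiparp (0.0495), Lat (0.021), Atp5b (-0.0043), Cd3g (0.0023), Pkm (-0.0025), Top2a (-0.0060), Birc5 (-0.96), Hsp90aa1 (-0.033), Cd74 (-0.014) and the Cd74 difference between gates (-0.14). Without cycling cells they were Atp5b (-0.018) and Cd3g (0.018), and without Treg-marker cells Ccr8 (-0.27). In the strata without doublets, Treg-marker and cycling cells they were Pgk1 (-0.067), Tiparp (0.098), Nkg7 (0.053), Atp5b (-0.072), Cd3g (0.033) and Ifi27l2a (-0.012). The Tyrobp difference from Ifng-negative cells was -0.86 in cells of 3000 to 6000 UMIs and -0.61 after thinning. Of 98 named genes that passed, 35 lost their call with DESeq2. Of those with a value, 36 of 97 lost it in depth strata and 41 of 88 in cells of 3000 to 6000 UMIs. Losses were largest after thinning (56 of 90), without the replicate block (67 of 98) and in the strata without doublets, Treg-marker and cycling cells (44 of 73). Gates on a single transcript are limited at this depth, since 52.5% of Ikzf2-positive cells held 1 Ikzf2 UMI.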
